A study of Mus musculus with 8 samples.

Results

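The accessibility of chromatin at 8 genes of cholesterol export, LXR signalling and lipid uptake (Mylip, Abca1, Abcg1, Nr1h3, Srebf2, Pparg, Cd36 and Msr1) was compared between day 21 and day 7 in type 1 conventional dendritic cells (cDC1s) taken from mouse tumours. A region of the deposited count table was assigned to a gene where its centre lay in the mm10 gene body, or within 50 kb of it with an end of that gene as the nearest end of any protein-coding gene. This rule gave 120 of the 128057 regions of the table, for 8 of 21896 protein-coding genes. Regions overlapping 1000 bp on either side of an annotated gene end, called gene ends here, were kept apart from all others, called distal regions. The table gave 11 regions at the members' own ends and 109 distal regions. Of the 120 regions, 112 had enough counts to be tested.

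cDC1s take up dead tumour cells and present their antigens to CD8 T cells. They had been sorted from B16-OVA tumours, a melanoma line that carries ovalbumin so that T cell responses can be followed, grown in wild-type mice, with 4 libraries from tumours 21 days after inoculation and 4 from tumours 7 days after it. ATAC-seq was used, in which a transposase cuts open DNA so that regions with more counts were more open. Values are CPM, a region's counts divided by the scaled library total and multiplied by 1000000, means are given with the SD of 4 libraries per day, and log2 changes are day 21 over day 7 with their SE. Every group carried the same tumour line and the wild-type genotype, and no allele, drug or vaccine was named in the labels. The sort markers, the mouse strain and age, and the mouse or mice behind each library are not given in the sources used here, so a p-value measures the spread between these libraries.

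LXRs are nuclear receptors that sense oxysterols. Nr1h3 encodes LXR alpha, and together with RXR the LXRs switch on genes that remove cholesterol (the transporters Abca1 and Abcg1) and Mylip, whose product marks the LDL receptor for degradation. Srebf2 encodes SREBP2, which works in the opposite direction and drives cholesterol synthesis and LDL uptake when membranes run short of sterol. Pparg encodes a nuclear receptor for fatty acids whose targets include Cd36, and Cd36 and Msr1 are scavenger receptors that take up oxidised lipids. Dendritic cells in tumours are known to load lipid through scavenger receptors, and lipid-laden dendritic cells present antigen poorly.

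At day 21 the Mylip promoter had fallen to about 0.551 of its day 7 accessibility. The Pparg promoter at the first of its listed starts had risen 1.64-fold. Summed over their distal regions, Abcg1 fell to 0.823 of its day 7 level and Srebf2 rose 1.16-fold. The summed distal regions of Mylip, Abca1, Nr1h3, Pparg, Cd36 and Msr1 did not pass the threshold, although single distal regions in 5 of these 6 loci did. Abca1 and Cd36 each held regions that rose and regions that fell.

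The promoters of 4 members are shown, each lying whole within a region of the table, as that of Cd36 also does. They are the start that fell (Mylip) and the start that rose (the first one listed for Pparg). The others are the most accessible member start per kb of region (Srebf2) and the start of a classical LXR target (Abca1). The letters are those of RefSeq on GRCm38.p6, which is the mm10 assembly, and run from 250 bases before the listed start to 50 bases from it. Capitals mark the motifs found, as described after the sequences.
Mylip promoter, chr13:45389492-45389791, plus strand: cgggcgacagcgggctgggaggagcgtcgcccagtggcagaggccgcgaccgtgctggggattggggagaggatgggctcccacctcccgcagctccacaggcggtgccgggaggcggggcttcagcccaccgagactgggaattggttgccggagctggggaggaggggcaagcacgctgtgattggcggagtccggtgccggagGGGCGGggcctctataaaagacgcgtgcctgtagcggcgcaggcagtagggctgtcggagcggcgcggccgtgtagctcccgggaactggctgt
Pparg promoter, chr6:115360894-115361193, plus strand: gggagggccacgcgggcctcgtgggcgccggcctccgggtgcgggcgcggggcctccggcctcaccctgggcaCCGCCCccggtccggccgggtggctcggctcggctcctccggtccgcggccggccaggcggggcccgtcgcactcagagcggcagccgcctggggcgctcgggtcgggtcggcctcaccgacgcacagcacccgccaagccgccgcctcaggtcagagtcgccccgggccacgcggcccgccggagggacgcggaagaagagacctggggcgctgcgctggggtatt
Srebf2 promoter, chr15:82147019-82147318, plus strand: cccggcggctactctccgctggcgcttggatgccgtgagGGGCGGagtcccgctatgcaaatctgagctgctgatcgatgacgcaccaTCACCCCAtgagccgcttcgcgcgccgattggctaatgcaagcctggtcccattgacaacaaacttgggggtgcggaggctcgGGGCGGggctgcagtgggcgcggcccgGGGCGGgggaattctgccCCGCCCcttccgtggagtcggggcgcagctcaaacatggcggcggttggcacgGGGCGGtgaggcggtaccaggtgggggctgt
Abca1 promoter, chr4:53159846-53160145, minus strand: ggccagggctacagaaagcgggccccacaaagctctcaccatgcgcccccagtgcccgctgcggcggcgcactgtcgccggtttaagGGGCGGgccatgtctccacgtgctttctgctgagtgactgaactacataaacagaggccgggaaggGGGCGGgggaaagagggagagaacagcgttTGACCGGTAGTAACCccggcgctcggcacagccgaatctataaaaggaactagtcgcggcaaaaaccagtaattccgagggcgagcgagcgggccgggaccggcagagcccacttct

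The RefSeq table has promoter entries for 6 of the 8 members, not for Abcg1 and Msr1. Motifs were searched on both strands. The GC box GGGCGG, which binds Sp1 family factors, is the capital stretch in Mylip (44 to 39 bases before the start) and in Pparg (as CCGCCC), and Abca1 has 2 and Srebf2 5 copies of it. It occurred in 35.6% of the 32817 promoters of the table. The TCACCCCA of the Srebf2 promoter, 162 to 155 bases before the start, is a form of the sterol regulatory element core, to which SREBPs bind, and occurred in 1.56% of all promoters. In the Abca1 promoter the capitals that are not a GC box (67 to 53 bases before the start) read on the other strand as the half-site core GGTNA repeated in the same direction with 5 bases between, which is the LXR type of repeat, and 0.719% of promoters held such a repeat. These last 2 motifs were added after the sequences had been seen. Of the motifs chosen with the design, CACCCCAC (2.87% of promoters), TGANTCA for AP-1 (7.81%), GAGGAAGT for PU.1 (3.2%), TGACGTCA for CREB factors (1.79%), and GNTCA repeats with 5 bases (0.853%) or 2 bases between (1.26%) were not found in the listed promoters of the members. A match is a run of letters and not a measured binding site.

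The 8 libraries held 14021151 to 27737040 counts at day 21 and 9440223 to 16063736 counts at day 7. Libraries of a day correlated at 0.961 to 0.974 at day 21 and at 0.945 to 0.963 at day 7 on log2 CPM, and libraries of different days at 0.916 to 0.944. Gene ends of all genes took 36.1% to 36.6% of counts at day 21 and 37.9% to 39.3% at day 7, and the 120 member regions took 0.0763% to 0.0793% at day 21 and 0.0776% to 0.0789% at day 7. For comparison with the marker counts that follow, 6.71% of all genes tested rose and 24.6% fell at gene ends, at an adjusted p under 0.05. In distal sums 19.2% of all genes tested rose and 11.4% fell. Chromatin of cDC1 marker genes was open, with 1885 to 2027 CPM summed over their distal regions at day 21 and 1647 to 1742 CPM at day 7. The summed ends of the cDC1 marker genes held 442 to 467 CPM at day 21 and 422 to 459 CPM at day 7. Of these genes 2 rose and 1 fell of 11 tested at gene ends, and 6 rose and 1 fell of 11 tested in distal regions. Marker genes of macrophages and monocytes were also open to a degree. At 16 gene ends tested out of 20 listed, 4 rose (Cd14, Ly6c2, C1qa and C1qc) and none fell, and their summed ends held 126 to 135 CPM at day 21 and 111 to 117 CPM at day 7. The complement gene C1qc stood at 7.65 ± 1.61 CPM at day 21 and 3.54 ± 0.39 CPM at day 7, whereas the ends of Adgre1, which encodes the macrophage antigen F4/80, held 1.99 ± 0.416 CPM at day 21 and 3.12 ± 0.609 CPM at day 7 (adjusted p = 0.0738), both named after their values were seen. Cd163, Marco, Vsig4 and Siglec1 had no region at an end. In distal regions 4 macrophage marker genes rose and 2 fell of 20 tested. Their distal regions summed to 723 to 753 CPM at day 21 and 671 to 734 CPM at day 7. For T and NK cell markers 1 gene rose and 5 fell of 16 tested in distal regions, with sums of 352 to 368 CPM at day 21 and 390 to 413 CPM at day 7, and 1 rose and 4 fell of 12 gene ends. Melanoma markers fell at 3 of 5 distal sums and rose at none (166 to 183 CPM summed at day 21 and 185 to 198 CPM at day 7), and 1 rose and 2 fell of 5 gene ends. Of distal sums, 2 rose and 1 fell of 8 for cDC2 and monocyte-derived dendritic cells, 1 rose and 1 fell of 5 for B cells, 1 rose and none fell of 6 for neutrophils, and none rose and 1 fell of 7 for stroma and endothelium. At gene ends of these lists 1 rose and none fell of 9 for cDC2 and monocyte-derived dendritic cells, none passed of 6 for B cells and of 5 for neutrophils, and none rose and 1 fell of 5 for stroma and endothelium. The part of such cells in the results that follow was not tested, and in bulk samples fewer cells of a type cannot be told apart from less open chromatin per cell.

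Of the 112 tested member regions, 9 rose and 10 fell at day 21 and 93 did not pass an adjusted p of 0.05. Over all 121865 regions tested, 9.5% rose and 9.86% fell, so the 17.0% of member regions that passed is close to the share of all regions. Their median log2 change was 0.02, against 0.00 for all regions. At the members' own ends 2 regions rose and 2 fell of 10 tested, and among distal regions 7 rose and 8 fell of 102 tested. The values of both days did not overlap in 13 of the 19 regions that passed, and in 17 of all 112 tested member regions. The 19 were picked by a test between the same days, so their separation is in part built in. The share without overlap over all regions is not given here. Small regions weigh in the count of regions that passed: 7 of the 19 had under 3 CPM on both days, and 8 changed at least 2-fold. Mean accessibility per kb of region was highest at the Srebf2 start (79.1 CPM per kb at day 21 and 89.0 CPM per kb at day 7) and in 1 region of the Cd36 gene body (80.9 CPM per kb at day 21 and 79.2 CPM per kb at day 7).

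**Figure D1:**
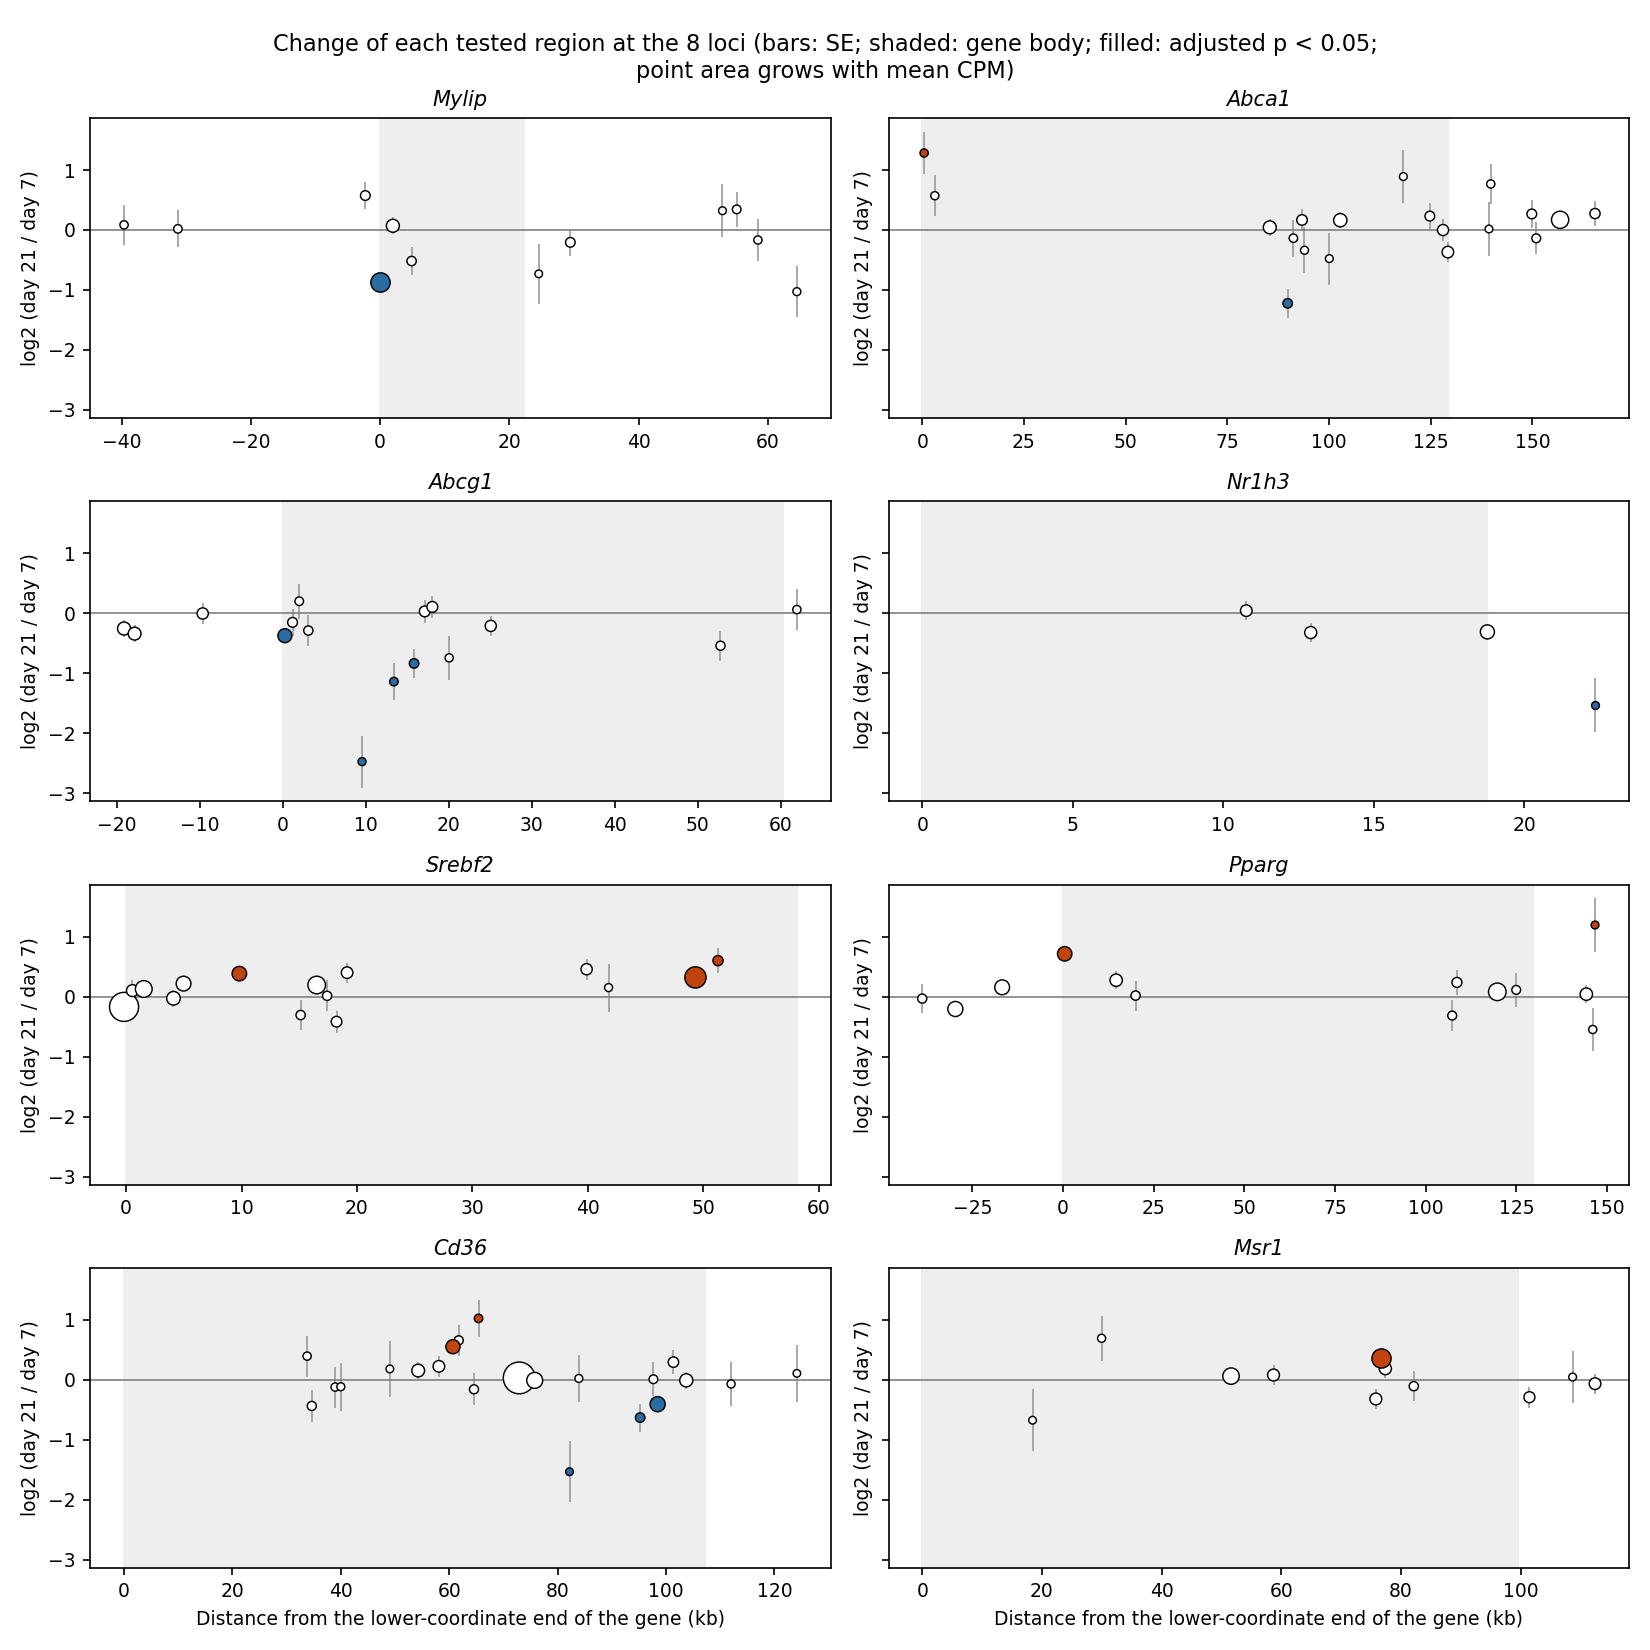
Log2 change (day 21 over day 7, vertical axis, with its SE) of each tested region against its distance in kb from the lower-coordinate end of the gene, with the gene body shaded and regions past an adjusted p of 0.05 filled. Most regions sit near 0, the Mylip start region lies at -0.86 and 3 regions in the first part of the Abcg1 gene body lie between -2.47 and -0.84.

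Summed over their ends, 1 member rose (Pparg) and 2 fell (Mylip and Abcg1) of 6 that could be tested. Cd36 had no region within 1000 bp of its annotated ends, and the single region at an Msr1 end held 0.296 to 0.724 CPM at day 21 and 0.167 to 0.761 CPM at day 7, too few counts for a test. Among 13569 genes tested at their ends, 6.71% rose and 24.6% fell, with a median log2 change of -0.09. That split depends on how libraries are scaled. With factors taken from the gene-end sums themselves 1665 genes rose and 1641 fell, and with offsets that follow the count level 1644 rose and 1643 fell, against 911 and 3338. In distal sums 1 member rose (Srebf2) and 1 fell (Abcg1) of 8 tested, beside 19.2% and 11.4% of the 14826 genes tested and a median of 0.04. That split was 2846 up and 1685 down, against 2316 and 2087 with factors of the distal sums.

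**Figure D2:**
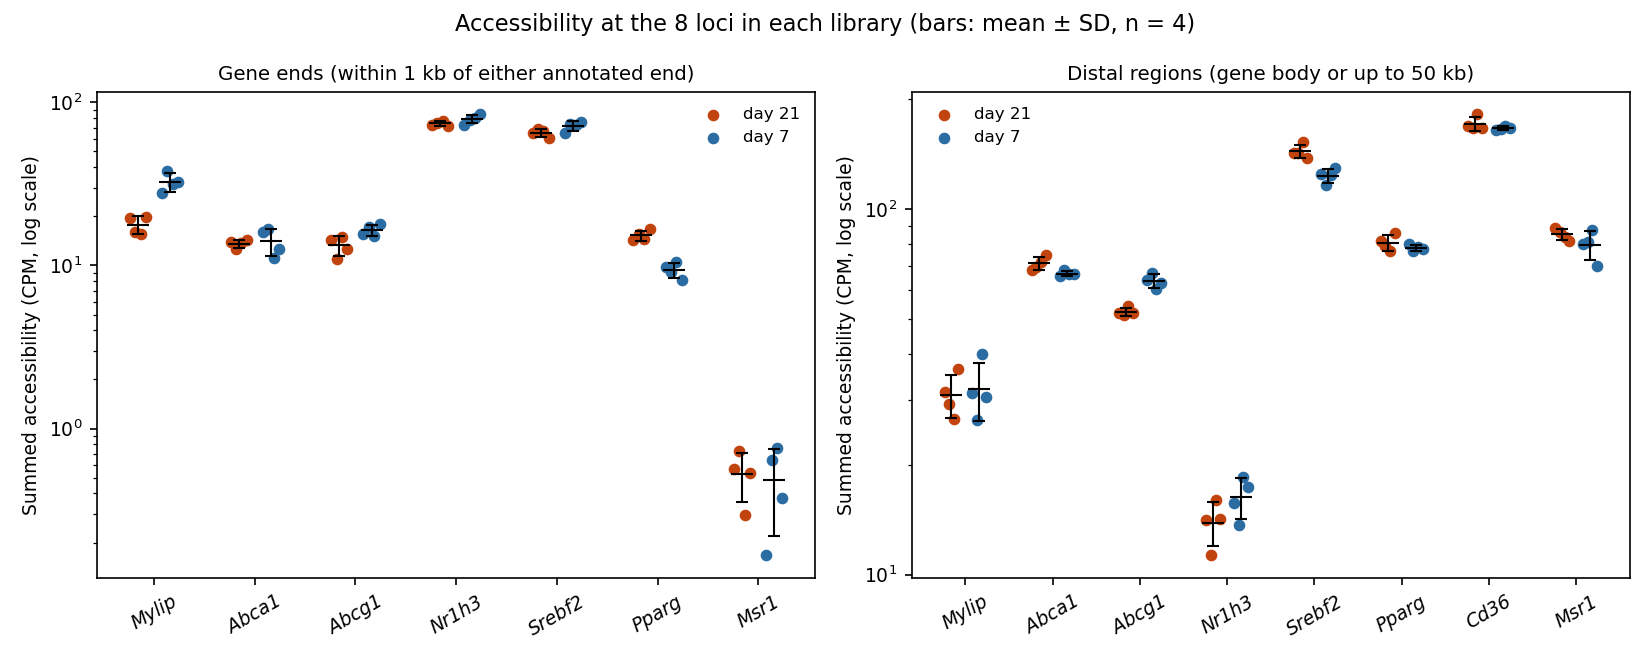
Summed accessibility in CPM (log axis) at gene ends and in distal regions of each member, 1 point per library, day 21 left of day 7, with mean and SD of 4 libraries. The days do not overlap at the ends of Mylip, Abcg1 and Pparg and in the distal sums of Abca1, Abcg1 and Srebf2.

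Among the regulators, Nr1h3 did not pass at its ends, where a region that the rule gives to the neighbouring gene Madd carried most counts. Its ends summed to 72.8, 75.2, 77.1 and 71.9 CPM in the day 21 libraries, against 73.0, 78.3, 80.3 and 84.7 CPM in the day 7 libraries. The days overlapped, and the log2 change of -0.09 ± 0.06 did not pass (edgeR adjusted p = 0.223). The single end region that the rule gives to Nr1h3, at the upper end (chr2:91202493-91203191), also lies at an end of Acp2, and 8.68 to 11.3 CPM at day 21 stood beside 10.7 to 13.8 CPM at day 7. Its log2 change of -0.31 ± 0.13 did not pass (adjusted p = 0.0774) and passed in 2 of 15 alternatives, without day 7 library 2 and with offsets that follow the count level. The starts that RefSeq lists for Nr1h3 lie inside the annotated gene body, and the region over them held 6.07, 5.73, 7.57 and 7.32 CPM at day 21 against 7.16, 5.97, 6.43 and 6.42 CPM at day 7, with a log2 change of 0.04. Only 3 distal regions fell to this gene by the rule, since Acp2 and Madd lie close on either side. The region at the listed starts is 1 of these 3, so it counts in the distal sum and not in that of the ends. Their sum was 13.9 ± 1.93 CPM at day 21 and 16.3 ± 2.12 CPM at day 7 (log2 -0.24 ± 0.12, adjusted p = 0.114). The Nr1h3 distal sum passed when day 21 library 3 (adjusted p = 0.0359) or day 7 library 2 (adjusted p = 0.0489) was left out. The region of the Nr1h3 locus that fell, chr2:91206325-91206513, is small, lies in the Acp2 gene body, and held 1.13, 0.362, 0.296 and 0.464 CPM at day 21 against 0.833, 1.17, 2.45 and 1.81 CPM at day 7. Its log2 change was -1.52 ± 0.45 (adjusted p = 0.0108), the days overlapped through day 21 library 1, and the call was lost without day 7 library 3 (adjusted p = 0.0939).

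Srebf2, the activator of cholesterol synthesis and LDL uptake, gained accessibility in its gene body. Its 13 distal regions summed to 142, 143, 152 and 137 CPM in the day 21 libraries, against 125, 116, 124 and 129 CPM in the day 7 libraries. Every day 21 library was above every day 7 library. The log2 change was 0.22 ± 0.05 (edgeR adjusted p = 5.96e-04), and it passed in all 18 alternatives tried, at 0.14 to 0.24. Of the 13 regions 3 rose and none fell. The most open of the 3, 49.3 kb downstream of the start (chr15:82196309-82196877), held 33.0, 30.8, 38.0 and 35.2 CPM at day 21 and 32.5, 25.7, 23.9 and 27.6 CPM at day 7, so that day 7 library 1 lay within the day 21 range (log2 0.32 ± 0.09, adjusted p = 0.0049). The region 9.81 kb downstream of the start averaged 14.2 ± 1.00 CPM at day 21 and 10.8 ± 1.73 CPM at day 7 (log2 0.38 ± 0.12, adjusted p = 0.021). The one 51.3 kb downstream averaged 5.13 ± 0.673 CPM at day 21 and 3.34 ± 0.699 CPM at day 7 (log2 0.60 ± 0.20, adjusted p = 0.0283). Neither of these last 2 overlapped between the days, and they kept their calls in 12 and 10 of 15 alternatives, with adjusted p up to 0.107 and 0.117.

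The promoter of Srebf2, printed above with its sterol element core, did not pass. The region over it (chr15:82146728-82147457) held 57.0, 60.2, 59.8 and 53.5 CPM at day 21 and 58.9, 66.7, 68.1 and 65.9 CPM at day 7. The groups overlapped only through day 7 library 1, and the log2 change of -0.17 ± 0.07 missed the threshold (adjusted p = 0.0542; 0.0188 to 0.209 over the alternatives). It differed from its locus as a whole by -0.27 on the log2 scale (adjusted p = 0.0162). The distal change of Srebf2 minus that of its ends was 0.36 ± 0.09 on the log2 scale (limma adjusted p = 0.0332, exact two-sided permutation p = 0.0286, the smallest that 70 relabelings allow). That call held in 2 of 10 alternatives, with adjusted p up to 0.0887.

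Pparg, the fatty acid receptor, opened at its first listed start. RefSeq also lists starts at chr6:115362349 and chr6:115422066, which no region of the table covers. The start region (chr6:115360696-115361949) held 14.4, 15.6, 14.5 and 16.7 CPM in the day 21 libraries and 9.83, 9.16, 10.5 and 8.10 CPM in the day 7 libraries. The day 21 libraries all lay above the day 7 libraries. The log2 change was 0.71 ± 0.12 (edgeR adjusted p = 4.46e-06) and was 0.64 to 0.80 in 18 alternatives, all past the threshold. The 12 distal regions of Pparg summed to 80.8 ± 3.94 CPM at day 21 and 78.3 ± 1.51 CPM at day 7 and did not pass (log2 0.05 ± 0.06, adjusted p = 0.565), and that value turned to about -0.0015 with offsets that follow the count level. The distal change minus the change at the start was -0.65 ± 0.10 on the log2 scale (limma adjusted p = 0.00849, exact permutation p = 0.0286), a call kept in all 10 alternatives.

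Within the Pparg locus, the region with the most counts (chr6:115479877-115481315, in the gene body) held 18.5 to 24.6 CPM at day 21 and 17.5 to 21.2 CPM at day 7 and did not pass (adjusted p = 0.651). One small region beyond the upper end, chr6:115507447-115507641, rose to 1.35 ± 0.268 CPM at day 21, against 0.623 ± 0.343 CPM at day 7 (adjusted p = 0.0487), a call that held in 6 of 15 alternatives. A region 30.0 kb before the first listed start, named after its values were seen, held 10.7 to 14.1 CPM at day 21 and 14.1 to 15.3 CPM at day 7, and its own change did not pass (log2 -0.21 ± 0.12, adjusted p = 0.218). It differed by -0.34 from the change of the whole locus, which includes the start region (adjusted p = 0.0407).

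Of the LXR targets, Mylip changed most at its start. Its single end region (chr13:45389382-45390060, which covers the promoter printed above) held 19.6, 16.1, 15.5 and 19.8 CPM in the day 21 libraries, against 27.9, 38.1, 31.5 and 32.5 CPM in the day 7 libraries. The lowest day 7 library was above the highest day 21 library. The log2 change was -0.86 ± 0.09 (edgeR adjusted p = 3.77e-11), and it was -0.93 to -0.60 in 18 alternatives, each past the threshold. The 5th percentile of all gene ends was -0.50.

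The distal regions of Mylip, a gene whose product acts on the LDL receptor, did not pass as a sum. These 16 distal regions summed to 31.7, 29.3, 26.6 and 36.4 CPM at day 21 and 31.4, 26.4, 40.2 and 30.6 CPM at day 7. The days overlapped throughout, and the log2 change of -0.05 ± 0.09 did not pass (adjusted p = 0.739) and changed sign when day 21 library 3 or day 7 library 3 was left out. The Mylip distal minus gene-end difference, day 21 over day 7, was 0.82 ± 0.18 on the log2 scale (limma adjusted p = 0.0209, exact permutation p = 0.0286). Among fits without 1 library, this call was lost without day 21 library 2 (0.0556), day 21 library 4 (0.0589) or day 7 library 4 (0.0508), with differences between 0.65 and 0.95 over 10 alternatives. A region 2.29 kb before the start held 3.81 to 5.10 CPM at day 21 and 1.81 to 3.72 CPM at day 7, and its own change did not pass (log2 0.57 ± 0.23, adjusted p = 0.0636). One 1.97 kb after the start held 8.33 to 11.3 CPM at day 21 and 6.93 to 10.3 CPM at day 7 and did not pass either (log2 0.07 ± 0.14, adjusted p = 0.790). Both were named after their values were seen, because they differed from the change of the whole locus, which includes the start region, by 0.98 and 0.47 (adjusted p = 0.00221 and 0.0272). The 5 small Mylip regions with too few counts for a test held at most 1.28 CPM in a library.

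Abca1, the transporter that loads cholesterol onto apolipoprotein A1, did not pass in either of its sums. Its 3 end regions summed to 13.8, 12.6, 13.7 and 14.2 CPM at day 21 and 16.1, 16.6, 11.2 and 12.6 CPM at day 7, with overlapping days (log2 -0.04 ± 0.12, adjusted p = 0.821), and the sign turned in 5 of 18 alternatives. The region over the promoter printed above held 6.21, 4.95, 5.44 and 6.14 CPM at day 21 and 7.83, 9.38, 6.09 and 6.42 CPM at day 7 and did not pass (log2 -0.37 ± 0.17, adjusted p = 0.119). The 16 distal regions summed to 70.9 ± 2.85 CPM at day 21 and 66.5 ± 0.973 CPM at day 7. These did not overlap, but the log2 change of 0.10 ± 0.06 did not pass (adjusted p = 0.226).

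Beneath these sums, 2 Abca1 regions moved in opposite directions. The one in the gene body 39.3 kb downstream of the start (chr4:53120475-53120783) held 1.62, 1.93, 2.60 and 1.61 CPM at day 21 and 4.00, 5.65, 4.48 and 4.05 CPM at day 7, without overlap. It fell by 1.22 ± 0.24 on the log2 scale (edgeR adjusted p = 7.74e-05) and kept the call in 15 of 15 alternatives. The region at the far end of the gene, 129 kb from the start (chr4:53031052-53031465), held 1.69, 2.29, 2.48 and 2.11 CPM at day 21 and 1.00, 1.49, 0.677 and 0.499 CPM at day 7, again without overlap. It rose by 1.28 ± 0.35 (adjusted p = 0.00529), also in 15 of 15 alternatives. The most counted region, 27.7 kb before the start, held 19.3 to 21.4 CPM at day 21 and 16.7 to 18.9 CPM at day 7, and without overlap it did not pass either (adjusted p = 0.238).

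Abcg1, which moves cholesterol onto HDL, fell in distal regions and at an end. Its 15 distal regions summed to 51.8, 51.4, 54.2 and 51.8 CPM in the day 21 libraries and 64.1, 67.0, 60.5 and 62.8 CPM in the day 7 libraries. All day 21 libraries lay below all day 7 libraries. The log2 change was -0.28 ± 0.06 (edgeR adjusted p = 3.62e-04), past the threshold in all 18 alternatives. Of the 14 distal regions tested, 3 fell and none rose, and 10 of the 14 changes were negative.

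The 3 distal Abcg1 regions that fell lie 9.55, 13.4 and 15.8 kb into the gene body from its lower-coordinate end. The first (chr17:31067099-31067383) held 0.423, 0.241, 0.709 and 0.214 CPM at day 21 and 1.83, 2.88, 1.52 and 2.43 CPM at day 7, the strongest change of all member regions tested (log2 -2.47 ± 0.43, adjusted p = 1.39e-05). The second (chr17:31070976-31071194) held 1.03 to 1.41 CPM at day 21 and 1.86 to 3.33 CPM at day 7 (log2 -1.14 ± 0.31, adjusted p = 0.0044). The third (chr17:31073349-31073675) averaged 2.32 ± 0.902 CPM at day 21 and 4.13 ± 0.759 CPM at day 7 (log2 -0.84 ± 0.24, adjusted p = 0.00869). The days overlapped through day 21 library 3, and it lost its call without day 7 library 1 (adjusted p = 0.0598).

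At the lower-coordinate end of Abcg1, whose strand the gene table does not give, 2 regions summed to 14.4, 10.9, 15.0 and 12.7 CPM at day 21 and 15.5, 17.2, 15.2 and 18.0 CPM at day 7. The days did not overlap, though day 21 library 3 came close to the lowest day 7 library. The log2 change was -0.32 ± 0.11 (adjusted p = 0.0222), and this call was lost in 8 of 17 alternatives, with adjusted p up to 0.169. The larger of the 2 regions (chr17:31057492-31058391) held 10.7, 8.03, 10.6 and 9.78 CPM at day 21 and 13.3, 12.9, 11.4 and 13.0 CPM at day 7. It fell without overlap (log2 -0.37 ± 0.13, adjusted p = 0.0304) and kept the call in 9 of 15 alternatives. Distal and end changes of Abcg1 did not differ beyond their error (0.04 ± 0.11, limma adjusted p = 0.851).

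**Figure D3:**
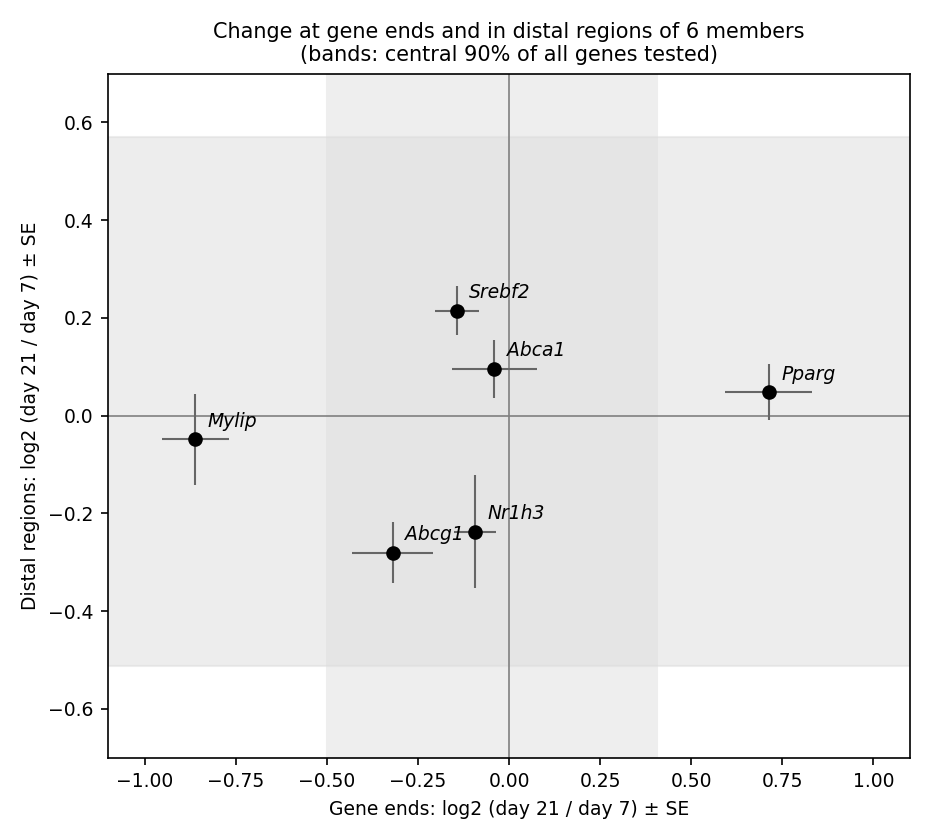
Log2 change of the distal sum (vertical axis) against that of the gene ends (horizontal axis) for the 6 members with both tests, with SE bars and bands that hold the central 90% of all genes tested on each axis. Mylip (-0.86, -0.05) and Pparg (0.71, 0.05) lie outside the band of gene ends and near 0 on the distal axis.

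The uptake receptor Cd36, which binds oxidised LDL and long-chain fatty acids, held the most distal counts of the 8 genes, and their sum did not pass. Its 22 regions summed to 169, 166, 182 and 167 CPM at day 21 and 164, 166, 169 and 167 CPM at day 7. The days overlapped, and the log2 change of 0.04 ± 0.05 did not pass (adjusted p = 0.580) and turned negative without day 21 library 3. The dominant region, in the gene body 18.7 kb before the listed start (chr5:17854147-17855068), held 67.4, 78.2, 79.0 and 73.4 CPM at day 21 and 69.2, 73.0, 76.6 and 73.0 CPM at day 7 (log2 0.03 ± 0.06). The region over the listed start, which the rule counts in the distal sum, held 8.57 to 10.1 CPM at day 21. It held 6.61 to 9.58 CPM at day 7 (log2 0.15 ± 0.15, adjusted p = 0.512).

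Cd36 had 5 regions past the threshold, 2 up and 3 down. The 2 that rose lie 6.48 and 11.2 kb before the listed start, and the 3 that fell lie 28.0, 41.0 and 44.3 kb before it. The first (chr5:17842038-17842723) held 15.0, 13.3, 14.8 and 12.0 CPM at day 21 and 9.33, 10.9, 8.88 and 8.54 CPM at day 7, with no overlap (log2 0.55 ± 0.13, edgeR adjusted p = 9.62e-04). The second averaged 2.41 ± 0.564 CPM at day 21 and 1.19 ± 0.348 CPM at day 7 (log2 1.02 ± 0.31, adjusted p = 0.013), lost without day 21 library 2 (0.0718). Among those that fell, the largest (chr5:17879857-17880447) held 12.8, 9.29, 15.3 and 10.6 CPM at day 21 and 15.5, 16.7, 14.6 and 16.5 CPM at day 7. These overlapped through day 21 library 3 (log2 -0.41 ± 0.12, adjusted p = 0.0127), and the call was lost without day 21 library 2 or library 4 (adjusted p up to 0.0950). The smallest averaged 0.422 ± 0.165 CPM at day 21 and 1.19 ± 0.622 CPM at day 7 (log2 -1.53 ± 0.51, adjusted p = 0.0244), lost without day 7 library 2 (0.120) and with offsets that follow the count level. The remaining one, at 2.55 ± 0.574 CPM at day 21 and 3.99 ± 0.914 CPM at day 7, kept its call in 3 of 15 alternatives.

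Msr1, the class A scavenger receptor for modified LDL, rose in its most open region. That region (chr8:39619582-39620185, in the gene body) held 26.8, 29.5, 29.9 and 25.2 CPM at day 21 and 22.0, 20.9, 25.0 and 18.4 CPM at day 7. The days did not overlap, the log2 change was 0.37 ± 0.09 (edgeR adjusted p = 0.00245), and 15 of 15 alternatives kept the call. No other of the 11 distal regions tested passed, and its neighbour on the lower-coordinate side held 5.29 to 7.42 CPM at day 21 and 5.36 to 8.95 CPM at day 7 (log2 -0.32 ± 0.17). All 12 distal regions together held 85.2 ± 2.96 CPM at day 21 and 79.7 ± 7.31 CPM at day 7 (log2 0.10 ± 0.06, adjusted p = 0.221).

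**Figure D4:**
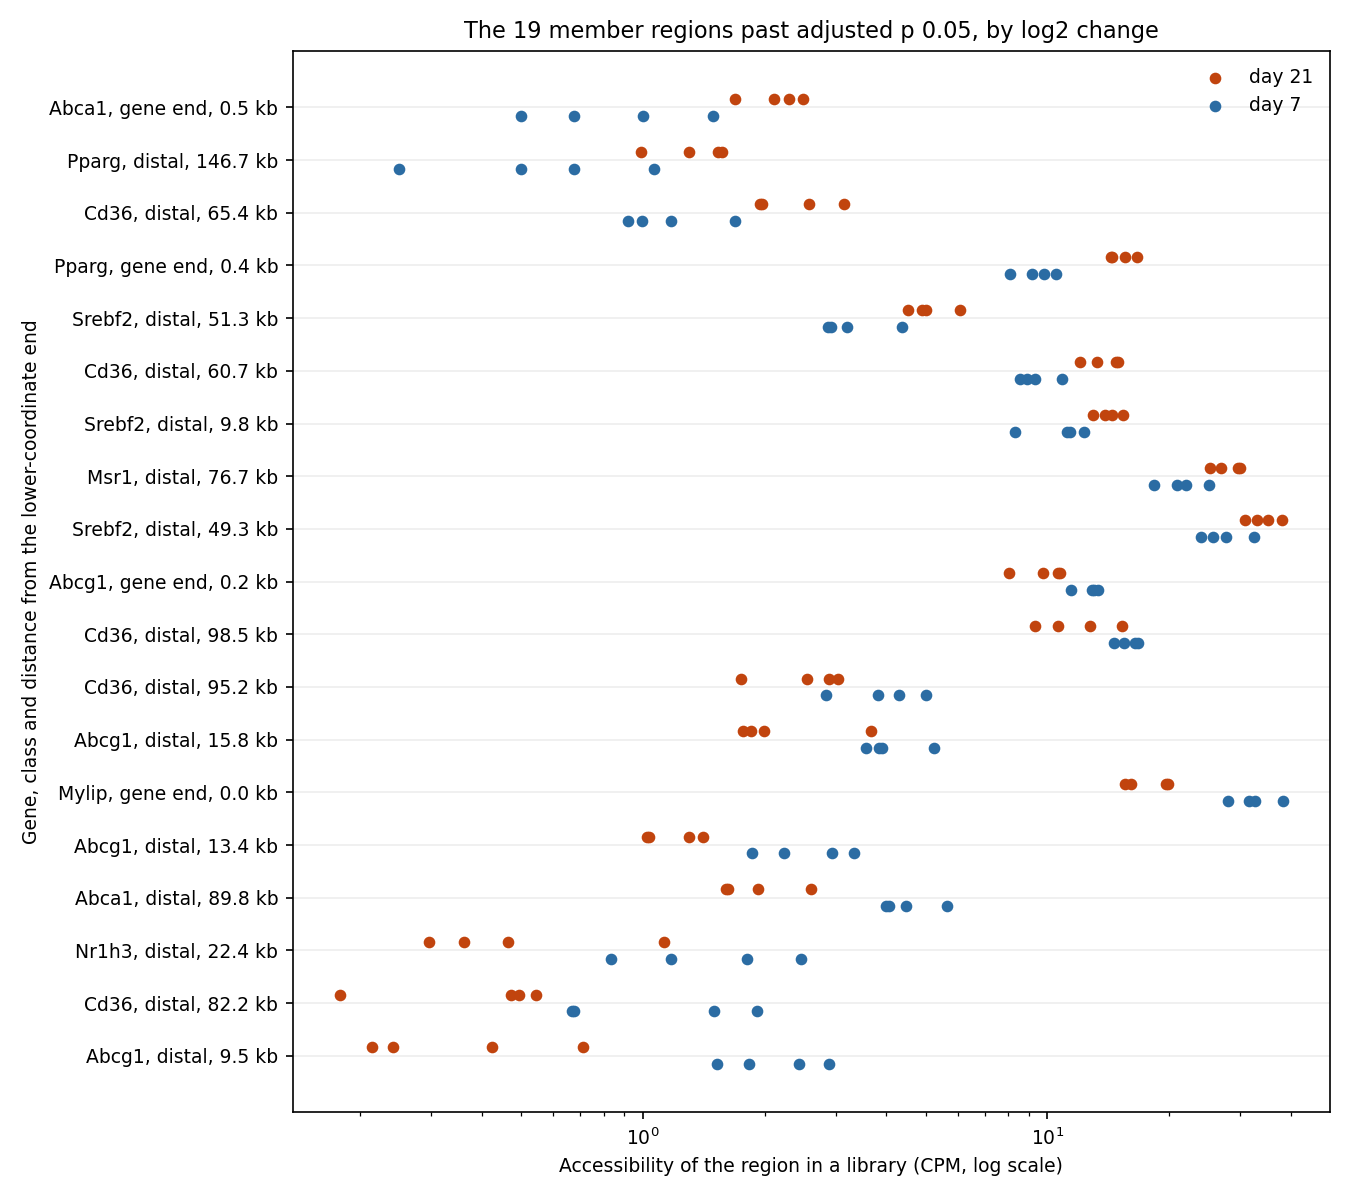
Accessibility in CPM (log axis) of each of the 19 member regions past an adjusted p of 0.05, 1 point per library, day 21 above day 7, in the order of the log2 change. Regions that rose stand at the top (Abca1, 1.28) and the Abcg1 region with -2.47 at the bottom. Of these 19, picked by the test between the days, 13 have no overlap.

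Changes within a locus differed between its regions at each of the 8 genes. Unequal change among the regions of a locus passed the threshold in 8 of 8 members, with 4 to 22 regions each and edgeR adjusted p between 1.21e-06 for Mylip and 0.0174 for Msr1, where 49.6% of all 14287 loci passed. The members were not matched to these loci by the number of regions tested. Tested 1 by 1 against their whole locus, 16 of 112 member regions passed, beside 11.9% of all regions. The distal change differed from the gene-end change in 3 of 6 members (Mylip, Srebf2 and Pparg), beside 15.6% of 11242 genes.

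The Mylip ends were followed most closely over the 8 libraries by the ends of Rab30, Castor2 and Lamtor3, with Pearson r of 0.997, 0.992 and 0.991 on log2 CPM. The distal sum of Abcg1 was followed most closely by those of Ccne1, Tesc and Ddc (r = 0.996, 0.991 and 0.988). These values are a description over 8 libraries that share 2 days, with no test.

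The wider pathway was read from 7 lists with 95 genes that are not members. At gene ends 9 rose and 18 fell of 82 tested, and in distal regions 19 rose and 14 fell of 85 tested. With factors taken from the sums the balance turned, to 15 up and 9 down at ends and 14 up and 21 down in distal regions. Of the LXR target genes, none rose and 6 fell of 15 tested at gene ends, where 6.71% of all genes rose and 24.6% fell. Those that fell include Mylip, Abcg1, and Lpcat3, which remodels phospholipids (72.2 ± 5.02 CPM at day 21 and 89.3 ± 5.28 CPM at day 7, log2 -0.31 ± 0.06, adjusted p = 5.00e-05). In distal regions 1 rose and 6 fell of 16 tested, where 19.2% of all genes rose and 11.4% fell. The desaturase genes Scd1 and Scd2 fell to 42.5 ± 1.81 and 57.5 ± 4.08 CPM at day 21, against 56.8 ± 5.37 and 82.2 ± 7.67 CPM at day 7 (log2 -0.41 ± 0.07 and -0.51 ± 0.06). Lpl, the lipoprotein lipase, fell to 4.46 ± 1.21 CPM at day 21, against 7.60 ± 0.894 CPM at day 7 (log2 -0.79 ± 0.18, adjusted p = 4.80e-04). The phospholipid transfer protein gene Pltp was the one that rose (log2 0.27 ± 0.07), a call lost with thinning to the smallest library (adjusted p = 0.0764). The medians of the list were -0.11 at ends and -0.16 in distal regions, beside -0.09 and 0.04 for all genes. Over the alternatives 0 to 1 rose and 4 to 6 fell at ends, and 0 to 1 rose and 5 to 7 fell in distal regions.

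Partners and cofactors of LXR mostly did not pass. The corepressor gene Nrip1 rose in distal regions to 235 ± 9.98 CPM at day 21, against 188 ± 7.23 CPM at day 7 (log2 0.31 ± 0.05, edgeR adjusted p = 2.13e-07). Its ends rose too (log2 0.17 ± 0.06, adjusted p = 0.023), with adjusted p from 5.26e-05 to 0.0921 over the alternatives. The ends of Rxrb, a partner of LXR, fell (32.0 ± 1.24 CPM at day 21 and 39.0 ± 3.32 CPM at day 7, log2 -0.28 ± 0.08). That call for Rxrb gene ends was lost with windows of 2000 bp (log2 -0.13, adjusted p = 0.123) and with offsets that follow the count level (log2 -0.18, adjusted p = 0.0585). In this list 1 rose and 1 fell of 12 gene ends, beside 6.71% and 24.6% of all genes. Of 12 distal sums 3 rose and 1 fell, beside 19.2% and 11.4% of all genes.

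Cholesterol synthesis enzymes fell at 8 of 19 gene ends and rose at none, beside 24.6% and 6.71% of all genes. This count rests on the scaling: 1 fell with DESeq2, with factors of the sums or with offsets that follow the count level, and 1 rose with each of the last 2. Without day 21 library 4, 4 gene ends fell, and no distal sum did. Mvd, which makes isopentenyl diphosphate, kept its fall in all 18 alternatives (67.7 ± 3.65 CPM at day 21 and 82.6 ± 6.70 CPM at day 7, log2 -0.28 ± 0.06). In distal regions 4 rose and 4 fell of 16, beside 19.2% and 11.4% of all genes. Of the SREBP2 processing genes, Scap, which escorts SREBP2 to the Golgi, rose in distal regions (41.2 ± 2.54 CPM at day 21 and 31.8 ± 4.89 CPM at day 7, log2 0.38 ± 0.08) and Mbtps1, the protease that first cuts it there, fell at its ends (38.5 ± 2.34 CPM at day 21 and 46.7 ± 3.73 CPM at day 7, log2 -0.28 ± 0.07). They were 2 of the 3 genes of that list that passed, Srebf2 being the other one, with 9 tested in each kind of sum.

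Of the PPAR genes, 4 rose and 1 fell of 12 gene ends tested, where 6.71% of all genes rose and 24.6% fell. In distal regions 5 rose and 1 fell of 15, where 19.2% of all genes rose and 11.4% fell. Over the alternatives 2 to 6 rose and 1 to 2 fell at ends, and 4 to 6 rose and 1 to 3 fell in distal regions. The coactivator gene Ppargc1b rose at its ends (33.5 ± 2.38 CPM at day 21 and 26.5 ± 2.12 CPM at day 7, log2 0.33 ± 0.08), whereas Ppard, a sister receptor, fell (34.0 ± 2.64 CPM at day 21 and 42.1 ± 2.07 CPM at day 7, log2 -0.30 ± 0.07). Distal regions of Ucp2, an inner mitochondrial membrane carrier, rose to 90.1 ± 7.24 CPM at day 21, against 65.7 ± 2.24 CPM at day 7 (log2 0.45 ± 0.06, edgeR adjusted p = 1.86e-08). Those of Acadl, an enzyme of fatty acid oxidation, rose to 137 ± 5.74 CPM at day 21, against 118 ± 3.45 CPM at day 7 (log2 0.21 ± 0.05).

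In the list of scavenger receptors and fatty acid carriers, 3 of 9 gene ends rose and none fell, beside 6.71% and 24.6% of all genes, with 0 to 4 rising over the alternatives. In distal regions 2 rose and 1 fell of 12, beside 19.2% and 11.4% of all genes. Olr1, the receptor LOX-1 for oxidised LDL, rose to 66.1 ± 2.85 CPM at day 21, against 52.6 ± 3.45 CPM at day 7 (log2 0.32 ± 0.06, adjusted p = 6.83e-05), and Fabp4, a fatty acid carrier and PPAR gamma target, to 35.0 ± 1.56 CPM at day 21, against 28.4 ± 2.79 CPM at day 7 (log2 0.29 ± 0.08), the call for Fabp4 being lost with windows of 2000 bp (adjusted p = 0.0904). The ends of Cd68 (log2 0.21 ± 0.06) and Scarb1 (log2 0.20 ± 0.08) rose with overlapping days, and Cd68 is also a general macrophage gene. The value for Cd68 gene ends was 0.05 with windows of 2000 bp (adjusted p = 0.537), and its call was also lost without day 21 library 3 (adjusted p = 0.0961). Scarb1 gene ends lost their call in 6 of 17 alternatives, with adjusted p up to 0.176, among them those without day 21 library 2 or 3 and without day 7 library 1 or 3.

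Of the genes of lipoprotein uptake and cholesterol handling, 2 rose and 3 fell of 15 at gene ends, beside 6.71% and 24.6% of all genes. In distal regions 4 rose and 3 fell of 18, beside 19.2% and 11.4% of all genes. With factors of the sums the counts were 4 up and 2 down at ends and 2 up and 7 down in distal regions. The ends of Cyp27a1, which makes the LXR ligand 27-hydroxycholesterol, rose to 29.3 ± 2.61 CPM at day 21, against 22.0 ± 2.12 CPM at day 7 (log2 0.41 ± 0.09, adjusted p = 2.56e-04). Those of Soat1, which esterifies cholesterol for storage, fell to 30.1 ± 2.54 CPM at day 21, against 39.0 ± 4.20 CPM at day 7 (log2 -0.37 ± 0.08), and those of Stard3, a sterol carrier of late endosomes, fell to 16.7 ± 2.73 CPM at day 21, against 22.5 ± 2.82 CPM at day 7 (log2 -0.43 ± 0.10), both with overlapping days. The distal fall of Ch25h, the cholesterol 25-hydroxylase gene (log2 -0.41 ± 0.09, adjusted p = 3.37e-04), turned to 0.09 when regions were limited to 20 kb.

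**Figure D5:**
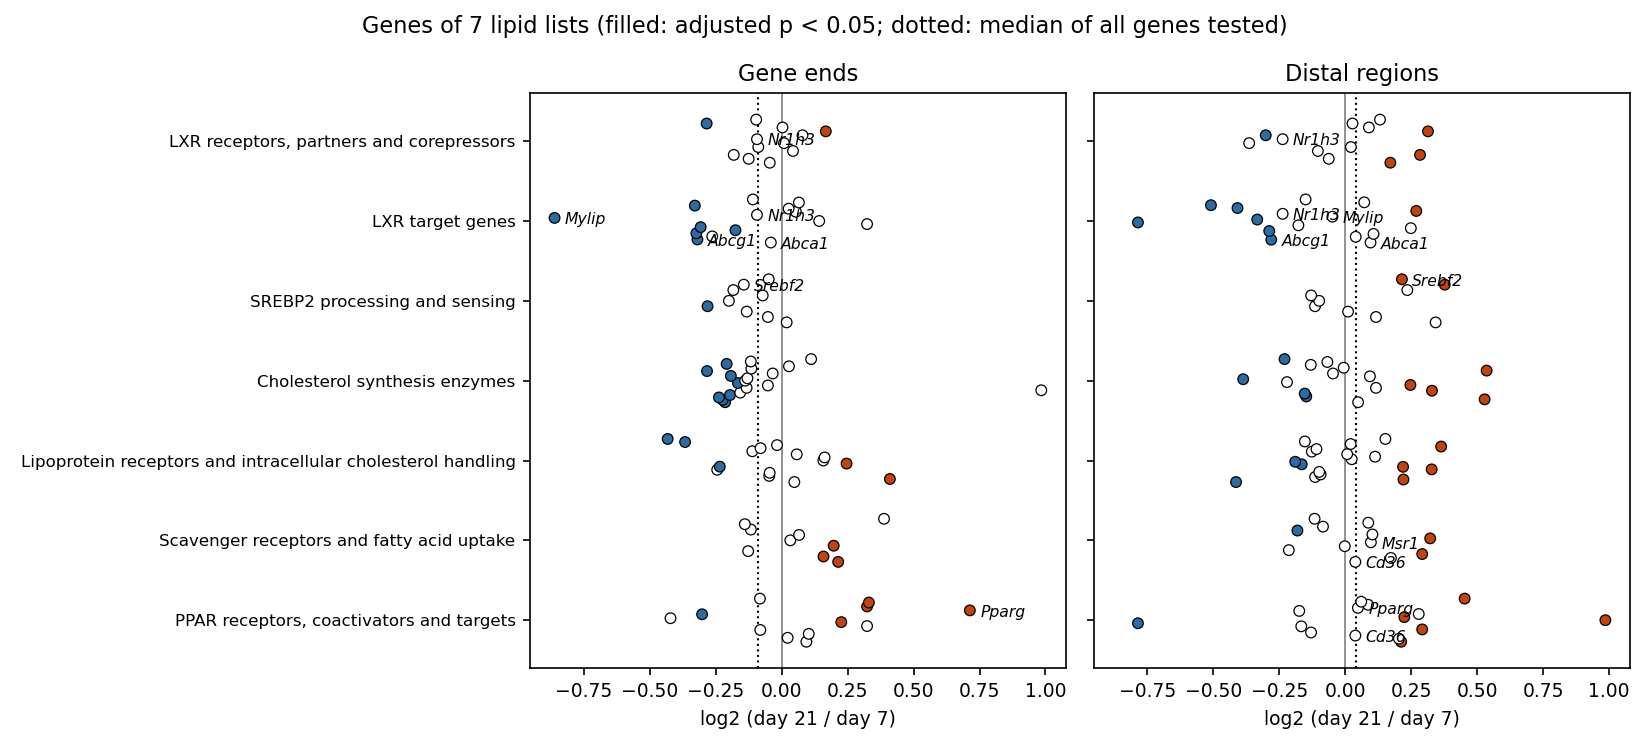
Log2 change (horizontal axis) of each tested gene of the 7 lists at gene ends (left) and in distal regions (right), filled where the adjusted p was under 0.05, with members named and the median of all genes dotted. LXR targets that passed lie below 0 apart from Pltp (0.27) in distal regions, and Pparg (0.71) and Mylip (-0.86) are the members farthest out at gene ends.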

How the data were processed

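ATAC-seq libraries of cDC1s sorted from B16-OVA tumours, 4 at day 21 and 4 at day 7, were deposited by the authors as 1 table of raw counts per region, with whole numbers that were not normalized and 1 column per library. The submitters' processing notes list MACS2 2.1.0.20150603, bedtools, SAMtools, Picard 1.65 and cutadapt 1.9, and as genome mm10, also called GRCm38. The aligner, the read filters, how peaks were merged and what was counted are not given in the sources used here, nor whether coordinates count from 0 or 1. Regions had a median width of 364 bp.

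Regions were assigned to genes with the RefSeq gene table of GRCm38.p6, which gives no strand and no exons, and counts were summed per gene over gene ends (1000 bp on either side) and distal regions (up to 50 kb). The 8 members and all lists were chosen with earlier results of these data known. Regions and sums were tested with the edgeR 4.0.16 quasi-likelihood test (TMM factors of the region table, filterByExpr) in R 4.3.3, over all 8 libraries, with Benjamini-Hochberg adjustment over every feature of a table and a threshold of 0.05. The filter left 121865 of 128057 regions. An edgeR test of unequal change among the regions of a locus, and of each region against its locus, used the same counts. The log2 ratio of distal to gene-end CPM (prior count 2) was tested with limma 3.58.1, and with an exact two-sided permutation test for the members. Log2 changes, CPM and SE come from these fits and scaled totals, and low regions carry more counting error. The tests were tried on simulated counts first. The common biological coefficient of variation was 0.133.

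Alternatives were DESeq2 1.42.0, its size factors, limma-voom, no filter, offsets that follow the count level, the replicate block, thinning to the smallest library, windows of 2000 bp, windows at listed starts, distal regions up to 20 kb, TMM factors of the sums, a prior count of 0.5 and leaving out each library.

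All members are described, with the region holding most counts and up to 3 regions per direction with the smallest p, and from each pathway list the 2 genes with the smallest p in each direction. Also described outside this rule are the regions over the listed starts of Abca1, Nr1h3 and Cd36. The same holds for the Madd region at an Nr1h3 end and the neighbour of the Msr1 region that rose. Other regions named outside the rule are marked as such.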

Additional observations from a re-analysis of the deposited data

Results flagged for a closer look

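Each group of 4 libraries was searched for a single library far from the other 3, by Dixon's 95% critical value, in 148 groups, where chance alone marks about 1 in 20. In 3 groups a library stood apart, each time day 21 library 3. The Abcg1 distal sum was 54.2 CPM there and 51.4 to 51.8 CPM in the other day 21 libraries. The Cd36 distal sum was 182 CPM there and 166 to 169 CPM in the others. The Abcg1 region chr17:31073349-31073675 held 3.67 CPM there and 1.76 to 1.99 CPM in the others, so that its days overlapped. Without that library the distal log2 change of Cd36 was -0.0054.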

How the results depend on the processing

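The number of member gene ends that fell was 2 and became 1, Mylip alone, under DESeq2, offsets that follow the count level, thinning, windows of 2000 bp, windows at listed starts (which the table lacks for Abcg1) and TMM factors of the sums, and 1 to 3 with a library left out. With a library left out, the member regions that fell numbered 6 to 10 (6 without day 21 library 2), the distal sums that fell 1 to 2, and the members with unlike distal and gene-end change 1 to 3. The same replicate numbers on both days did not pair the libraries (r of their deviations 0.0052 to 0.0122). With the number as a replicate block, 1 member (Pparg) instead of 3 differed between distal and end change, the Mylip distal minus gene-end difference having adjusted p = 0.0579 and that of Srebf2 0.075, and 11404 regions rose and 11871 fell, against 11572 and 12018. The cause of these shifts was not tested.

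Every value that changed sign missed the threshold under the alternative that turned it. Abca1 gene ends turned to 0.043 with DESeq2, 0.017 with count-level offsets and 0.048 with factors of the sums, and ranged from -0.13 to 0.038 with a library left out. Cd36 distal turned to -0.0031 with DESeq2 and -0.043 with count-level offsets, and ranged from -0.0054 to 0.053. Pparg distal turned to -0.0015 with count-level offsets and Nr1h3 gene ends to 0.044 at listed starts. With a library left out, Mylip distal ranged from -0.14 to 0.073, the Abcg1 distal minus gene-end difference from -0.044 to 0.084, the most counted Cd36 region from -0.011 to 0.077 and that of Pparg from -0.0069 to 0.12. Fdps distal turned to -0.23 with windows of 2000 bp, and Lrp8 and Ch25h distal to 0.015 and 0.092 up to 20 kb.

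Of other comparisons with the alternatives, 272 of the member sums, 305 of the named regions and 584 of the list genes kept direction and side of the threshold, and 20, 42 and 41 lost a call. Over all genes, gene ends split 911 up to 3338 down, against 1481 to 1502 with DESeq2, and distal sums 2846 to 1685, against 2077 to 2039. The 9440223 to 27737040 counts per library limit regions under 3 CPM most.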
